A study of Mus musculus with 4 samples.

Results

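The S100 proteins are small calcium-binding proteins, and 8 of their genes were followed here through every library: S100a8, S100a9, S100a1, S100a4, S100a6, S100a10, S100a11 and S100a13. They were chosen by symbol from a table of 18021 mouse genes, with earlier results of these data known. All 8 had a row and passed the filter on low values. That filter asks for a mean over the libraries of 1 FPKM or more (fragments per kilobase of transcript, scaled to the depth of the library). None of the other S100 genes looked up reached it, so the 8 are the expressed part of the family. The libraries come from dendritic cells grown out of C57BL/6 bone marrow for 5 days in GM-CSF and IL4 and matured by LPS at 100 ng/ml over 24 h before transfection, a background that all 4 groups share. The groups were si-NC/Med (si-NC siRNA, unstimulated), si-NC/CCR7L (si-NC and 12 h of CCL19 with CCL21, which bind the receptor CCR7), si-Lnc-Dpf3/Med (an siRNA whose name points to the lncRNA lnc-Dpf3, unstimulated) and si-Lnc-Dpf3/CCR7L (that siRNA and both ligands, 12 h). Each group is 1 library, so a difference between single libraries has no replicate check. The RNA that the siRNA is named for was not analysed here, so its depletion is not checked by these values.

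S100 proteins carry a pair of EF-hand loops that bind calcium, and most work as dimers that expose a binding face for a partner protein once calcium is bound. S100a8 and S100a9 pair to form calprotectin, an abundant cytosolic protein of neutrophils and monocytes that is released in inflammation and signals through Tlr4. S100a4, S100a6, S100a10 and S100a11 act mainly inside the cell, on myosin, annexins and the cytoskeleton, and are found in many motile cell types, dendritic cells among them.

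The 8 genes fell into groups with different behaviour. S100a4, S100a6, S100a10, S100a11 and S100a13 rose with CCR7L, S100a4 the furthest at 1.67-fold on average. S100a8 and S100a9 measured 1.41 to 1.56 times as high under si-Lnc-Dpf3 as under si-NC, but neither passed the test over all genes. S100a1 passed in neither comparison. The plot of FPKM by library shows these patterns gene by gene.

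**Figure D1:**
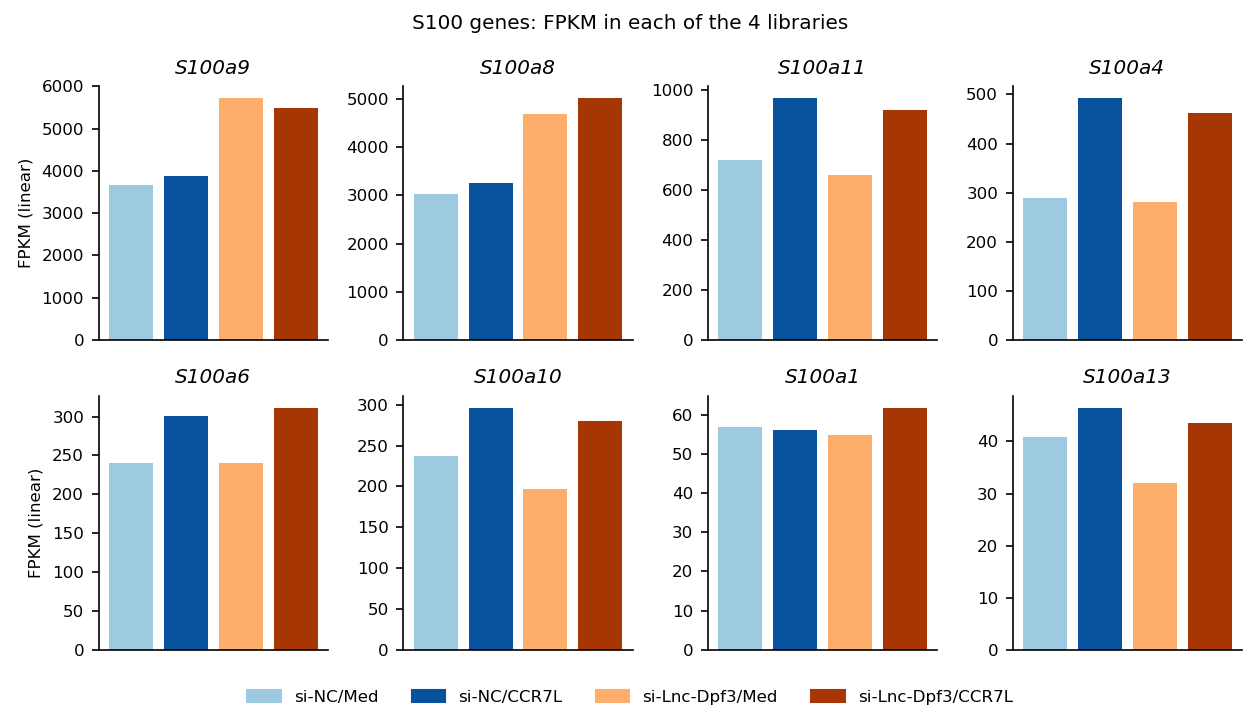
FPKM of the 8 S100 genes, ordered by mean level, with 1 bar per library and a linear axis from 0 in each panel. S100a9 and S100a8 are higher in both si-Lnc-Dpf3 libraries, while S100a11, S100a4, S100a6, S100a10 and S100a13 are higher in both CCR7L libraries.

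All 8 genes lie on chromosome 3, in the S100 cluster (GRCm38.p6, RefSeq). S100a1 (90511034 to 90514330), S100a13 (90514233 to 90524581), S100a4 (90603770 to 90606045), S100a6 (90612894 to 90614414), S100a8 (90669071 to 90670034) and S100a9 (90692630 to 90695721) lie there in this order, with other genes among them. S100a11 (93520496 to 93526288) and S100a10 (93555117 to 93564645) lie farther along, past 56 other protein-coding genes. S100a8 and S100a9 are neighbours with no coding gene between them, and so are S100a11 and S100a10. The RefSeq spans of S100a1 and S100a13 overlap by 98 bases on opposite strands. Whether the authors' counting used strand is not given in the sources used here, so reads from that overlap cannot be assigned to either gene with certainty. A RefSeq pseudogene named S100a11-ps on chromosome 12 (73961087 to 73961577) was not analysed here, and whether its reads were counted to S100a11 is not known, so the level of S100a11 is uncertain to that extent.

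Promoter sequences are shown for 2 pairs of members so that they can be set side by side: S100a8 and S100a9, the members highest under si-Lnc-Dpf3, and S100a4 and S100a11, the members with the largest rise with CCR7L. Each sequence runs from 250 bases before to 50 bases after the RefSeq transcript start, 5′ to 3′ on the gene's strand (RefSeq, GRCm38.p6). The windows are chr3:90668821-90669120 (plus strand) for S100a8, chr3:90695672-90695971 (minus strand) for S100a9, chr3:90603520-90603819 (plus strand) for S100a4 and chr3:93520246-93520545 (plus strand) for S100a11. Capitals mark matches on either strand to any of 8 motifs, and no match overlaps another.
S100a8: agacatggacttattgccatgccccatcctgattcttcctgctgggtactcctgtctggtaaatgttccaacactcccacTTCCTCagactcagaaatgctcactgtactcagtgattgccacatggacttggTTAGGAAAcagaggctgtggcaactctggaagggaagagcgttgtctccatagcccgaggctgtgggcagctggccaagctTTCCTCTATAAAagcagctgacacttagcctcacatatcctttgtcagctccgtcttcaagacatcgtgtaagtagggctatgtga
S100a9: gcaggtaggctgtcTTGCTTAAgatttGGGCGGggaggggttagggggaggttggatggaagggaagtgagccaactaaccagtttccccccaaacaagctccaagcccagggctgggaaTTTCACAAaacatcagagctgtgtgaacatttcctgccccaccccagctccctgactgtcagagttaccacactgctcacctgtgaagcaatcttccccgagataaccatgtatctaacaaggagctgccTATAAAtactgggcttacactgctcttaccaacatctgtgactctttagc
S100a4: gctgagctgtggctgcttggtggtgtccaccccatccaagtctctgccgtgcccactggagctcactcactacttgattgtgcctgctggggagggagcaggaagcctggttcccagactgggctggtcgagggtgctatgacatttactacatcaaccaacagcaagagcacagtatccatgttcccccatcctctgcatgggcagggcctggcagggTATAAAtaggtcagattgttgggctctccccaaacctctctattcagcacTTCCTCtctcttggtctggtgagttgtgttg
S100a11: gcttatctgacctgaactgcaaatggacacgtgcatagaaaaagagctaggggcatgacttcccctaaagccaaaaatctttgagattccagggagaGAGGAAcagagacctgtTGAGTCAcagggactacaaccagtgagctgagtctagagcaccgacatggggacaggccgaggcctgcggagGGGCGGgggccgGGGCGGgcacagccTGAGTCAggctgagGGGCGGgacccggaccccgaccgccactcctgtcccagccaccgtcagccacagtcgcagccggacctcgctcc

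The RefSeq table held a window for 7 of the 8 members. The TATA box letters TATAAA are in 13.6% of all 32851 windows and in 3 of the members' windows. These were S100a8, S100a9 and S100a4. They start at base -31 for S100a4 and at base -30 for S100a8, counting the annotated start as base 0. In S100a9 they start at base 0, at the annotated start itself. S100a11 has no such match, and its window holds the AP-1 letters TGANTCA starting at bases -136 and -38 and the GC box letters GGGCGG starting at bases -64, -52 and -24. The AP-1 letters are in 1 member window and in 7.81% of all windows. The GC box letters are in 2 member windows, S100a11 and S100a9 (starting at base -223), and in 35.7% of all windows. A C/EBP pattern, TTNNGNAA, matched in the S100a8 and S100a9 windows and in no other member's window, against 40.7% of all windows. The PU.1 letters GAGGAA were found in 3 member windows (S100a8, S100a4 and S100a11) and in 28.3% of all windows. The remaining motifs were CCAAT, found for S100a6 and in 37.4% of all windows, the NF-kappaB letters GGANTTTCC, in 0 member windows and 1.25% of all, and the STAT pattern TTCNNNGAA, in 0 and 8.3%. These matches are descriptions of letters in the window, not evidence of binding. S100a1 and S100a13 lie on opposite strands. The S100a13 window was placed on a start at 90514435, 105 bases from the S100a1 start and downstream of the first base of the S100a13 gene span, which lies inside S100a1. The windows of both genes share 204 bases.

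The libraries were alike in size. Summed FPKM ran from 474610 to 500607, and between 10997 and 11075 genes reached 1 FPKM. The step size of low FPKM values gave depths of 19600000 to 20400000 reads, each chosen as the depth that put the largest share of low values on whole reads. That share was 54.5% to 60.9% within 0.1 of a read, against 20% for evenly spread values at a fixed depth, so reads could not be recovered gene by gene. At that depth the members had about 449 reads or more in each library, and S100a9 up to about 58200. Counting error alone, at the 95% level, then spans a ratio of 1.14-fold for S100a13, 1.11-fold for S100a1, and 1.02-fold for S100a8. Each span was taken at the reads of the gene's lowest library. These figures leave out any difference between cultures or library preparations.

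One technical feature bears on these genes in particular, because their transcripts are short. The lengths of all 8 lie between 486 and 731 bases. In the si-Lnc-Dpf3/Med library, short transcripts were low and long ones high relative to si-NC/Med and to si-Lnc-Dpf3/CCR7L. Among the 379 genes of 400 to 800 bases, the median log2 ratio of CCR7L to Med was 0.17 under si-Lnc-Dpf3 and -0.01 under si-NC. The median ratio of si-Lnc-Dpf3 to si-NC for the same genes was -0.13 without CCR7L and 0.04 under CCR7L. Comparisons that use the si-Lnc-Dpf3/Med library are therefore given beside the ones that do not. The part that transcript length plays in any one gene's ratio was not tested, but values with the length and GC trend removed are given where they change a call. The plot of ratios against transcript length shows both.

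**Figure D2:**
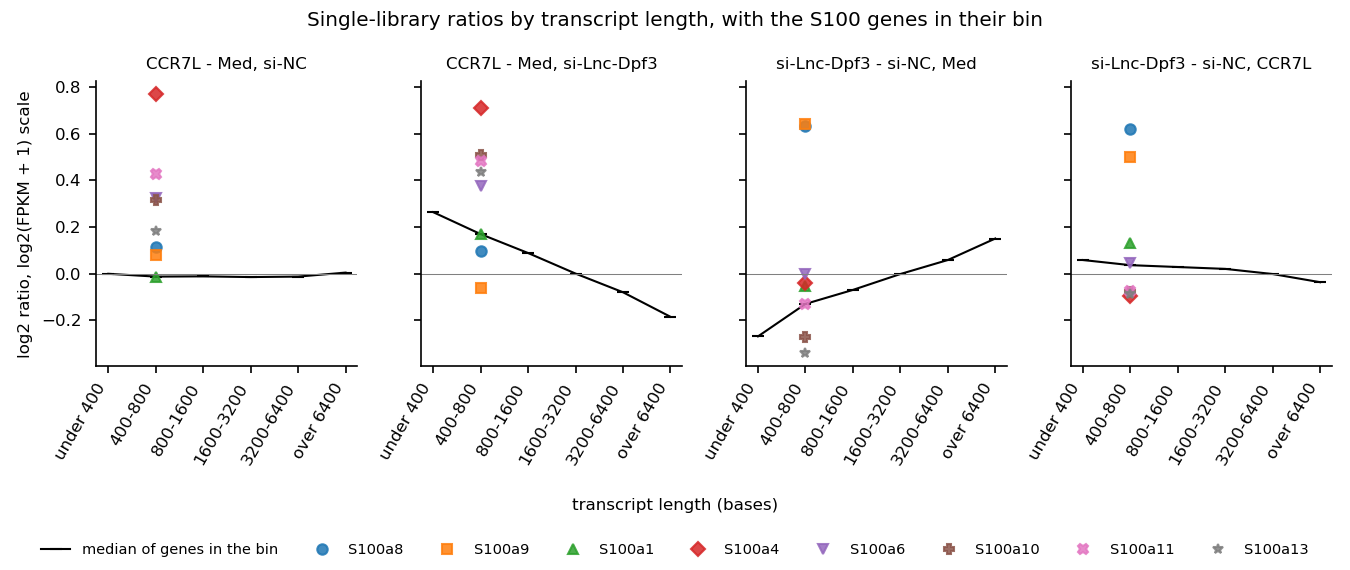
Log2 ratio on the log2(FPKM + 1) scale for the 4 single-library comparisons, against transcript length in bases; the line joins the medians of all genes tested in each length bin, and the symbols are the 8 S100 genes in their own bin of 400 to 800 bases. The line is flat for CCR7L under si-NC, at -0.01 in the members' bin, and slopes in both comparisons that use the si-Lnc-Dpf3/Med library.

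S100a9 and S100a8, the subunits of calprotectin, were the fourth and sixth most abundant transcripts of the table by mean FPKM. S100a9 measured 3670 FPKM in si-NC/Med, 3884 in si-NC/CCR7L, 5721 in si-Lnc-Dpf3/Med and 5488 in si-Lnc-Dpf3/CCR7L. S100a8 measured 3020, 3269, 4691 and 5022 FPKM in the same order. Under si-Lnc-Dpf3 the CCR7L library was the lower one for S100a9 and the higher one for S100a8. Both si-Lnc-Dpf3 libraries lie above both si-NC libraries for each gene, with no overlap. Among all genes tested, 24.8% had both si-Lnc-Dpf3 libraries above both si-NC libraries, so the order alone is common. For S100a9 the FPKM ratio of si-Lnc-Dpf3 to si-NC was 1.56-fold without and 1.41-fold with CCR7L. For S100a8 it was 1.55-fold and 1.54-fold.

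On the log2(FPKM + 1) scale, which is used for all tests, the average siRNA difference was 0.63 ± 0.16 (SE) for S100a8 and 0.57 ± 0.17 for S100a9. Neither passed limma's moderated test over 11041 genes, with adjusted p = 0.054 for S100a8 and 0.099 for S100a9. Their 95% intervals run from 0.27 to 0.98 and from 0.19 to 0.95. Only 18 and 30 of the genes tested had a larger average difference in that direction. The test compares each effect with the interaction and a spread borrowed from other genes, and it replicates no group. The call turned on the setting: both genes passed with equal totals, with the length and GC trend removed (adjusted p = 1.6e-05 for S100a8 and 0.00011 for S100a9, limma), without the mean-variance trend and with robust variances, and neither passed in a model without the stimulation term. S100a8 alone passed with a pseudocount of 0.1 and with median-ratio scaling. Neither passed with a pseudocount of 5 (limma adjusted p = 0.075 for S100a8 and 0.13 for S100a9) or with the filter at 5 FPKM (limma adjusted p = 0.071 and 0.13). Without a filter neither passed (limma adjusted p = 0.49 and 0.53). Of the 14 alternatives, S100a8 passed in 6 and S100a9 in 4.

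Of the 8 members, 0 passed the limma test as higher with si-Lnc-Dpf3 and 0 as lower, against 2.33% and 2.04% of all genes tested. At an unadjusted p under 0.05, 2 members were higher, S100a8 and S100a9, and 2 lower, S100a10 and S100a13. At 1.5-fold or more on the log2(FPKM + 1) scale, 2 members were higher with si-Lnc-Dpf3 without CCR7L, S100a8 and S100a9, against 0.435% of all genes. Under CCR7L 1 member was, S100a8, against 0.308% of all genes. S100a9 under CCR7L, with a log2 ratio of 0.50, lay below that line.

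S100a9 had the higher FPKM in each of the 4 libraries, with a ratio of S100a9 to S100a8 of 1.22, 1.19, 1.22 and 1.09. Together the pair held 1.36% of summed FPKM in si-NC/Med, 1.45% in si-NC/CCR7L, 2.19% in si-Lnc-Dpf3/Med and 2.10% in si-Lnc-Dpf3/CCR7L. With CCR7L the average log2 difference was 0.11 ± 0.16 for S100a8 and 0.01 ± 0.17 for S100a9, neither of which passed (limma adjusted p = 0.82 and 0.99). Those intervals, -0.25 to 0.46 and -0.37 to 0.39, are wide enough to hold changes of the size seen in S100a6.

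Part of a list of markers of neutrophils and their precursors was also higher under si-Lnc-Dpf3. In bulk RNA, more cells of a type and more RNA per cell of that type cannot be told apart. Of 18 neutrophil markers other than S100a8 and S100a9, 17 were tested. With si-Lnc-Dpf3, 9 rose and 0 fell (limma, over all genes), against 2.33% and 2.04% of all genes tested. The median log2 difference of the list was 0.39 against 0.015 over all genes tested. This list was chosen with earlier results of these data known, so its counts are descriptions only. Summed over the list, FPKM was 5363 in si-NC/Med, 5382 in si-NC/CCR7L, 7067 in si-Lnc-Dpf3/Med and 6924 in si-Lnc-Dpf3/CCR7L. The largest part of each sum was Chil3, which did not pass, at 2635, 2745, 3619 and 3441 FPKM in the same order. The granule genes Ltf (0.99 ± 0.06), Elane (0.89 ± 0.08) and Ngp (0.84 ± 0.10) rose by more than the differences measured for S100a8 and S100a9. The chitinase-like gene Chil3 at 0.39 ± 0.15 (limma adjusted p = 0.19), the siderophore-binding Lcn2 at 0.03 ± 0.12 and the granulocyte receptor gene Csf3r at -0.16 ± 0.08 were among the 8 that did not pass. No neutrophil marker was at 0 in all libraries, and Ly6g, a surface marker of mature neutrophils, stood at 2.23 to 3.98 FPKM. With CCR7L 0 of the 17 passed in either direction, against 2.93% higher and 3.11% lower among all genes tested. The part of such cells in the S100a8 and S100a9 values was not tested.

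**Figure D3:**
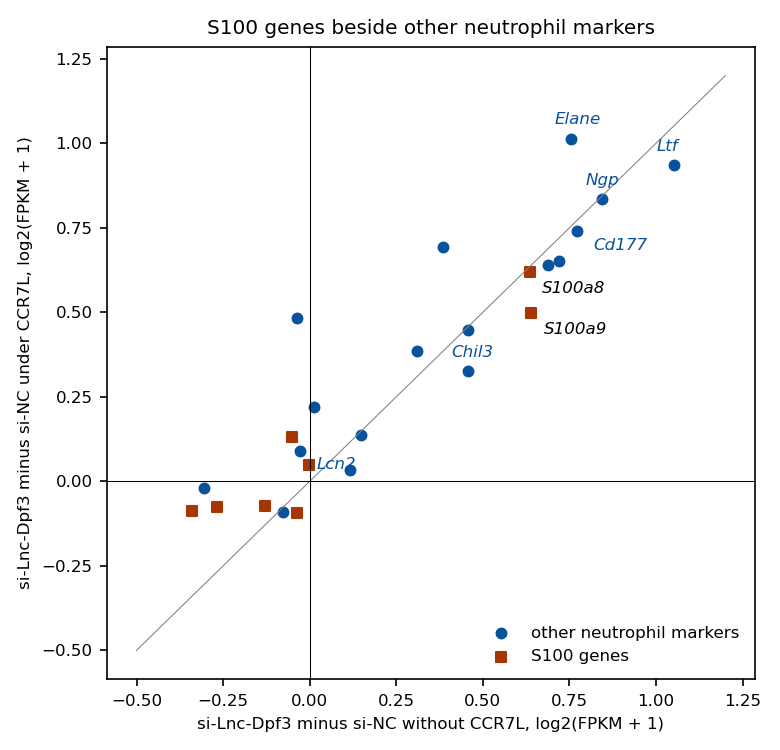
Log2 ratio of si-Lnc-Dpf3 to si-NC on the log2(FPKM + 1) scale, without CCR7L on the x axis and under CCR7L on the y axis, for the 8 S100 genes (squares) and the 17 other neutrophil markers tested (circles); the grey line marks equal ratios. S100a8 (0.64 and 0.62) and S100a9 (0.64 and 0.50) sit among the higher neutrophil markers, and the other 6 S100 genes lie between -0.34 and 0.13 on both axes.

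Monocytes also make calprotectin. Of 9 monocyte and macrophage markers tested, 0 rose and 2 fell with si-Lnc-Dpf3 (limma), the macrophage gene Adgre1 by 0.33 and the Fc receptor gene Fcgr1 by 0.29 on the log2 scale. Ly6c2, which marks inflammatory monocytes, measured 2401, 2349, 2178 and 2337 FPKM in the order si-NC/Med, si-NC/CCR7L, si-Lnc-Dpf3/Med and si-Lnc-Dpf3/CCR7L. Among 12 markers of mature dendritic cells, 0 rose and 5 fell with si-Lnc-Dpf3 (Itgax, Cd86, Cd80, Cd40 and Cd83), and 4 rose and 4 fell with CCR7L. The median siRNA log2 difference of these 12 was -0.232, and 0 of them had a positive one. Over all genes tested, 2.33% rose and 2.04% fell with si-Lnc-Dpf3, and 2.93% rose and 3.11% fell with CCR7L. Levels within this list differed widely, with Ccr7 at 615 FPKM or more and Cd74 at 1516 FPKM or more in each library. Itgax stood at 24.65 to 33.31 FPKM, Zbtb46 at 10.42 to 13.9 and Flt3 at 11.94 to 12.6. Of 6 mast cell and basophil markers, 0 rose and 1 fell with si-Lnc-Dpf3 and 0 rose and 1 fell with CCR7L, and their summed FPKM was 539 to 625. Markers of fibroblasts stayed at 0.54 FPKM or less, and lymphocyte markers at 1.74 FPKM or less.

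The genes with the course most like that of S100a8 over the 4 libraries were BC100530, Stfa2, Stfa1, Pglyrp1 and Stfa2l1, among the 6440 genes whose mean reached 10 FPKM. Likeness was the Euclidean distance between log2(FPKM + 1) values centred on each gene's mean, and it ran from 0.018 for BC100530 to 0.078 for Stfa2l1. BC100530 measured 241, 263, 372 and 399 FPKM in the order si-NC/Med, si-NC/CCR7L, si-Lnc-Dpf3/Med and si-Lnc-Dpf3/CCR7L. Stfa1, Stfa2 and Stfa2l1 encode stefin A inhibitors of cysteine proteases and belong to a family of closely similar copies, so reads could be split between them, and their single values are uncertain. Pglyrp1, a peptidoglycan recognition protein of granulocytes, measured 113, 115, 170 and 185 FPKM. For S100a9 the closest were Ifitm6, G0s2, Ms4a3, Stfa2l1 and Pknox2, at distances of 0.050 to 0.076. With 4 libraries these lists are descriptions only.

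S100a4, also called metastasin, binds non-muscle myosin and is known for its role in cell motility. It measured 289 FPKM in si-NC/Med, 493 in si-NC/CCR7L, 281 in si-Lnc-Dpf3/Med and 461 in si-Lnc-Dpf3/CCR7L. Both CCR7L libraries lie far above both unstimulated libraries, by 1.71-fold under si-NC and 1.64-fold under si-Lnc-Dpf3. Averaged over both siRNAs, S100a4 rose by a log2 value of 0.74 ± 0.08 (SE, limma adjusted p = 0.00016), and 47 genes of 11041 rose further. S100a4 was the only member at or above 1.5-fold with CCR7L, under si-NC (0.752% of all genes) and under si-Lnc-Dpf3 (1.10%). Its log2 ratio under si-Lnc-Dpf3 was 0.71, and 0.51 with the length and GC trend removed, which is below 1.5-fold.

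S100a11 and S100a10 sit side by side on the chromosome and both bind annexins. S100a11, whose partner is annexin A1, measured 720, 968, 659 and 921 FPKM in the order si-NC/Med, si-NC/CCR7L, si-Lnc-Dpf3/Med and si-Lnc-Dpf3/CCR7L. S100a10, also called p11, which forms a tetramer with annexin A2 at the plasma membrane and does not need calcium for it, measured 238, 296, 197 and 281 FPKM. For each of them both CCR7L libraries lie above both unstimulated ones, as for 16.2% of all genes tested. The lowest library is si-Lnc-Dpf3/Med for both genes. S100a11 rose by 0.45 ± 0.09 (limma adjusted p = 0.014) and S100a10 by 0.41 ± 0.08 (limma adjusted p = 0.0074) on the log2 scale.

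S100a6, or calcyclin, which binds Cacybp and annexins, measured 240 FPKM in si-NC/Med, 301 in si-NC/CCR7L, 240 in si-Lnc-Dpf3/Med and 311 in si-Lnc-Dpf3/CCR7L. The unstimulated libraries were almost equal and both CCR7L libraries higher. S100a6 rose by 0.35 ± 0.07 on the log2 scale (limma adjusted p = 0.013).

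S100a13, which takes part in the release of Fgf1 and Il1a, proteins that lack a signal peptide, measured 40.8, 46.4, 32.0 and 43.6 FPKM in that order. It rose with CCR7L by 0.31 ± 0.07 on the log2 scale (limma adjusted p = 0.032). Its ratio was larger under si-Lnc-Dpf3 (1.36-fold) than under si-NC (1.14-fold), and its value in si-Lnc-Dpf3/Med was the lowest of the 4. On the log2 scale the ratios were 0.44 and 0.18, and after removal of the length and GC trend they were 0.25 and 0.18, so that their difference went from 0.25 to 0.07. The difference between those ratios was not tested, since the interaction uses the only residual degree of freedom. The ratio under si-NC is close to the span of counting error given for this gene, also 1.14-fold. That span was taken at the lowest library, si-Lnc-Dpf3/Med with about 449 reads. The si-NC libraries had about 572 and 667 reads, so their span is somewhat narrower, and it was not computed. Without the mean-variance trend the call was lost (limma adjusted p = 0.12). In the model of stimulation alone the S100a13 value was 0.14 without si-Lnc-Dpf3/Med and 0.48 without si-NC/Med, so its size rests on those libraries. Each of these fits sets 1 unstimulated library against both CCR7L libraries, so the siRNA difference enters it.

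S100a1, best known from heart and skeletal muscle, where it acts on calcium-handling proteins, measured 56.8, 56.2, 54.8 and 61.7 FPKM in the same order of libraries. The highest and lowest library differ by 1.13-fold, against a span of counting error of 1.11-fold. Its average log2 difference was 0.08 ± 0.07 with CCR7L and 0.04 ± 0.07 with si-Lnc-Dpf3 (limma adjusted p = 0.66 and 0.82). S100a13, its neighbour on the opposite strand, passed for CCR7L while S100a1 did not. The difference between these neighbours was not tested.

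In all, 5 of 8 members rose with CCR7L and 0 fell in the limma test of the average effect, against 2.93% and 3.11% of all genes tested. At an unadjusted p under 0.05, the counts were also 5 and 0. The median over the 8 members was 0.33 on the log2 scale against -0.02 over all genes tested. Among the 379 genes of like length, 400 to 800 bases, the median was 0.07 and 6.60% rose. The same 5 members have both CCR7L libraries above both unstimulated libraries, against 16.2% of all genes. With the length and GC trend removed 5 members passed, with log2 values between 0.21 for S100a13 and 0.62 for S100a4. Under si-NC alone, where the length trend was flat, the 5 genes had log2 ratios of 0.77 (S100a4), 0.43 (S100a11), 0.33 (S100a6), 0.31 (S100a10) and 0.18 (S100a13).

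The number that passed depends on the filter and the model. Without a filter on low values 0 members passed (limma adjusted p = 0.41 for S100a4), and in that fit 0 of all genes passed, with 2036 at an unadjusted p under 0.05. In a model of stimulation alone 1 member passed, S100a4 (limma adjusted p = 0.010). With 1 library left out of that fit in turn, S100a4 passed without si-NC/Med or without si-Lnc-Dpf3/Med (limma adjusted p = 0.037 and 0.045) and 0 members passed without si-NC/CCR7L or without si-Lnc-Dpf3/CCR7L (limma adjusted p = 0.0885 and 0.061 for S100a4).

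S100a1, S100a4, S100a6, S100a10, S100a11 and S100a13 did not pass the test for si-Lnc-Dpf3 on the values as deposited. Their average log2 differences ran from -0.21 ± 0.07 for S100a13 (limma adjusted p = 0.15) and -0.17 ± 0.08 for S100a10 (limma adjusted p = 0.26) to 0.04 ± 0.07 for S100a1. S100a13 passed as lower with median-ratio scaling (-0.24, limma adjusted p = 0.042) and with the length and GC trend removed (-0.16, limma adjusted p = 0.042). Without the si-Lnc-Dpf3/Med library, in a model of the siRNA alone, the S100a13 difference was 0.004. That fit sets si-Lnc-Dpf3/CCR7L against both si-NC libraries, so the CCR7L difference enters it. Between the CCR7L libraries alone, the S100a13 log2 ratio of si-Lnc-Dpf3 to si-NC was -0.087. No member had both si-Lnc-Dpf3 libraries below both si-NC libraries, against 15.7% of all genes. For S100a13 and S100a10 the ratio of si-Lnc-Dpf3 to si-NC was 0.785-fold and 0.829-fold without CCR7L and 0.940-fold and 0.948-fold under CCR7L. Together the 6 genes held 0.322% of summed FPKM in si-NC/Med, 0.308% in si-Lnc-Dpf3/Med, 0.437% in si-NC/CCR7L and 0.415% in si-Lnc-Dpf3/CCR7L. The plot of average effects places the 8 genes on both axes at once.

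**Figure D4:**
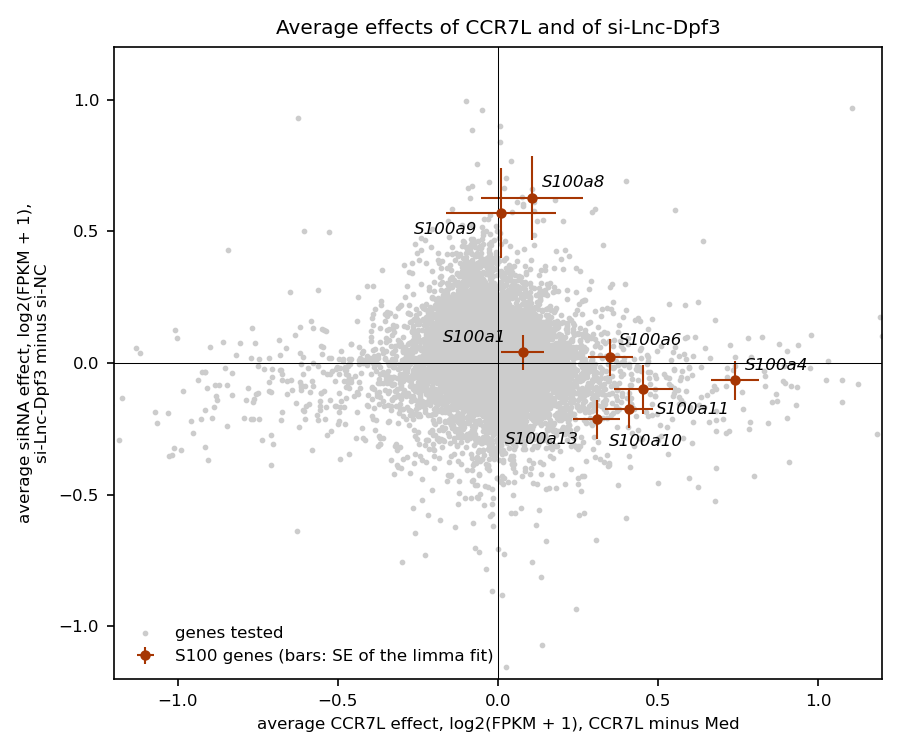
Average CCR7L effect (x axis) against average siRNA effect (y axis), both as differences of log2(FPKM + 1), for the 8 S100 genes with bars of 1 SE from the limma fit and for the genes tested as grey points; 28 genes beyond 1.2 on either axis are not drawn. S100a8 and S100a9 lie at 0.63 and 0.57 on the siRNA axis and near 0 on the CCR7L axis, and S100a4, S100a11, S100a10, S100a6 and S100a13 lie between 0.31 and 0.74 on the CCR7L axis and between -0.21 and 0.02 on the siRNA axis.

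By level, the order of mean FPKM was S100a9 (4691), S100a8 (4001), S100a11 (817), S100a4 (381), S100a6 (273), S100a10 (253), S100a1 (57.4) and S100a13 (40.7). FPKM is already per length, but the length trend, the overlap of S100a1 with S100a13 and the pseudogene S100a11-ps leave comparisons between genes approximate. Neighbours in this order overlap in range over the 4 libraries for S100a9 with S100a8, S100a4 with S100a6, and S100a6 with S100a10. Within each of the 4 libraries these pairs kept their order, though S100a6 and S100a10 were almost equal in si-NC/Med (240 and 238 FPKM). S100a11 stood clear of S100a8 above it and S100a4 below it, and S100a1 stood clear of both S100a10 and S100a13.

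The rest of the family was near 0. Of 10 other mouse S100 genes looked up, 9 had a row, and 0 reached a mean of 1 FPKM, so none was tested. S100a3, a hair cuticle protein gene, was the highest, at 0.59, 1.33, 0.82 and 0.81 FPKM in the order si-NC/Med, si-NC/CCR7L, si-Lnc-Dpf3/Med and si-Lnc-Dpf3/CCR7L. S100b, which marks astrocytes and other glia, stayed at 0.06 FPKM or less, and S100a2 was listed at 0 in all 4 libraries. S100a14 and S100a16, which lie inside the cluster between S100a13 and S100a4, reached 0.18 and 0.09 FPKM. S100a7a, next to S100a8 on the side of S100a6, had 0.18 to 0.49 FPKM.

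Known partners of S100 proteins were read in the same libraries. Of 23 listed, all were tested, and 1 rose and 2 fell with CCR7L, while 1 rose and 1 fell with si-Lnc-Dpf3 (limma, over all genes). Over all genes tested, 2.93% rose and 3.11% fell with CCR7L, and 2.33% rose and 2.04% fell with si-Lnc-Dpf3. The one that rose with CCR7L was Anxa2 on chromosome 9 (69453683 to 69491792), which encodes annexin A2, the partner of S100a10. Anxa2 measured 393 FPKM in si-NC/Med, 509 in si-NC/CCR7L, 348 in si-Lnc-Dpf3/Med and 478 in si-Lnc-Dpf3/CCR7L. It rose by 0.42 ± 0.08 on the log2 scale (limma adjusted p = 0.0091), beside 0.41 for S100a10. Anxa1, Anxa5, Anxa6, Anxa11 and the scaffold gene Ahnak did not pass, with average log2 differences between -0.02 and 0.07. Fgf1, a growth factor released with S100a13, fell with CCR7L by 1.25 ± 0.11 on the log2 scale (limma adjusted p = 5.3e-05), with 4.50 FPKM in si-NC/Med, 1.54 in si-NC/CCR7L, 4.09 in si-Lnc-Dpf3/Med and 0.96 in si-Lnc-Dpf3/CCR7L. The CCR7L libraries were the low ones, where S100a13 itself was high. The other cargo gene listed, the cytokine gene Il1a, passed in neither comparison. None of the intracellular targets Myh9, Cacybp, Sugt1 and Trp53 passed either.

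Of 5 genes for transcription factors known to drive S100a8 and S100a9 in myeloid cells (Cebpa, Cebpb, Cebpd, Spi1 and Stat3), 1 rose with si-Lnc-Dpf3 and 1 fell with CCR7L. Cebpb rose with si-Lnc-Dpf3 by 0.26 ± 0.06 on the log2 scale (limma adjusted p = 0.048). Stat3 fell with CCR7L by 0.30 ± 0.06 on the log2 scale (limma adjusted p = 0.016). Cebpb measured 112 FPKM in si-NC/Med, 103 in si-NC/CCR7L, 130 in si-Lnc-Dpf3/Med and 127 in si-Lnc-Dpf3/CCR7L. Both si-Lnc-Dpf3 libraries lie above both si-NC libraries, as for 24.8% of all genes tested.

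Of 6 receptor genes for S100 proteins or their co-receptors, 0 rose and 1 fell with si-Lnc-Dpf3, and 0 passed with CCR7L. Tlr4, the LPS receptor through which calprotectin signals, measured 19.4, 19.0, 20.0 and 17.3 FPKM in the order si-NC/Med, si-NC/CCR7L, si-Lnc-Dpf3/Med and si-Lnc-Dpf3/CCR7L, with no call in either comparison. Its co-receptor genes Cd14, at 405, 383, 305 and 335 FPKM, and Ly96, at 18.2, 17.7, 12.4 and 17.4 FPKM, did not pass for si-Lnc-Dpf3 (limma adjusted p = 0.065 and 0.21). Ager, which encodes the receptor RAGE, was low at 1.80 to 1.99 FPKM, and Bsg, which encodes the receptor EMMPRIN, stood at 129 to 142 FPKM. Cd36, a scavenger receptor gene, fell with si-Lnc-Dpf3 by 0.33 ± 0.07 on the log2 scale (limma adjusted p = 0.032), with 38.8, 31.2, 28.6 and 26.6 FPKM in that same order.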

How the data were processed

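RNA was sequenced once per group at Beijing Genomics Institute (BGISEQ-500), per the labels' protocols. The authors deposited FPKM per gene, per the file headers. Bowtie2, RSEM and GRCm38 are named by the submitters' processing notes, and neither versions nor options were given. Columns were matched to groups by the siRNA and stimulation abbreviations in their names. In 26 rows a symbol turned into a date was restored through its Entrez number. Transcript length and GC content came from GENCODE transcripts (17164 of 18021 genes), coordinates and promoter windows from RefSeq on GRCm38.p6.

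Values were analysed as log2(FPKM + 1) over the 11041 genes whose mean reached 1 FPKM; this scale understates changes of low genes. The test was limma 3.58.1 (R 4.3.3) with siRNA and stimulation as additive terms, a mean-variance trend, 1 residual degree of freedom (the interaction), 9.63 prior degrees of freedom and Benjamini-Hochberg adjustment over all genes at 0.05; it was tested on simulated data. No source says that the libraries are separate cultures, so p-values may measure technical spread. Ratios of single libraries carry no test. Scaling, pseudocount, filter, trend and model alternatives were tried. The members and gene lists were chosen with earlier results of these data known. All members were named, then the other S100 genes, the receptors, the partners past the test, and the 5 genes nearest in course to S100a8 and to S100a9.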

Additional observations from a re-analysis of the deposited data

Results flagged for a closer look

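Some members had single-library ratios of opposite sign under the same contrast. For S100a9 the log2 ratio of CCR7L to Med was 0.082 in si-NC cells, while in si-Lnc-Dpf3 cells it was -0.060. For S100a1 the same ratio was -0.015 in si-NC cells, while in si-Lnc-Dpf3 cells it was 0.169. S100a1 also had a log2 ratio of si-Lnc-Dpf3 to si-NC of -0.051 without CCR7L and 0.132 under CCR7L. For S100a6 this ratio was -0.002 and 0.047. None of these differences was tested, since each rests on 1 library per group. In each pair one comparison uses the si-Lnc-Dpf3/Med library, where short transcripts were low, and the part of this was not tested. With the length and GC trend removed, the CCR7L ratio under si-Lnc-Dpf3 minus that under si-NC changed. It went from -0.142 to -0.258 for S100a9, from 0.184 to 0.003 for S100a1 and from 0.048 to -0.129 for S100a6.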

How the results depend on the processing

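Each group is 1 library, so groups and preparations cannot be told apart. No paired analysis was possible because each group has 1 library. The rise of S100a4, S100a6, S100a10, S100a11 and S100a13 with CCR7L kept its direction under all 14 alternatives, but many of these could not reverse it. The filters, the variance settings and the single-factor model leave the average difference as it was. Both CCR7L libraries lie above both unstimulated ones for these genes, so leaving out a library cannot reverse the direction either. The number of members that rose stayed at 5 with other pseudocounts (0.1 and 5), with the filter at 5 FPKM, with both scalings, after removal of the length and GC trend and with robust variances. It was 4 without the mean-variance trend. It was 0 without a filter on low genes, 1 with the stimulation as the only factor, and 0 to 1 in the single-factor fit with 1 library left out.

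For si-Lnc-Dpf3 the number of members that rose was 1 with a pseudocount of 0.1, 1 with median-ratio scaling, and 2 each with equal totals, with the length and GC trend removed, without the mean-variance trend and with robust variances; 1 member fell, S100a13, with median-ratio scaling and with the length and GC trend removed. With equal totals the prior degrees of freedom became infinite, so those small p-values rest on a spread shared by all genes. The average siRNA difference of S100a8 ran from 0.57 to 0.71 over the alternatives and that of S100a9 from 0.53 to 0.65.

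Over all genes, the siRNA test gave 503 higher and 347 lower with equal totals, 434 lower with median-ratio scaling, 873 and 632 after removal of the length and GC trend, 43 and 34 without the mean-variance trend, and 0 and 1 with a single factor (limma, 1152 at an unadjusted p under 0.05). It gave 0 and 0 in limma without a filter (1939 unadjusted) and 0 and 0 in each single-factor fit with a library left out (520 to 1445 unadjusted). The CCR7L test gave 516 higher with median-ratio scaling, 551 lower with equal totals, 604 and 614 after removal of the length and GC trend, 102 and 136 with a single factor, 40 to 96 and 49 to 91 with a library left out, and 0 and 0 in limma without a filter (2036 unadjusted). With the length and GC trend removed 0 members reached 1.5-fold for CCR7L under si-Lnc-Dpf3. The cause of these shifts was not tested.

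Small differences changed sign. With the length and GC trend removed the siRNA difference of S100a4 was 0.012, and the CCR7L differences were -0.015 for S100a8, -0.104 for S100a9 and -0.022 for S100a1. The CCR7L difference of S100a9 was -0.030 with equal totals, and the siRNA difference of S100a6 was -0.006 with median-ratio scaling. With a library left out of the single-factor fit, siRNA differences ran from -0.044 to 0.125 for S100a1, -0.450 to 0.318 for S100a4 and -0.165 to 0.210 for S100a6. They ran from -0.426 to 0.080 for S100a10, -0.341 to 0.141 for S100a11 and -0.432 to 0.004 for S100a13. CCR7L differences ran from -0.211 to 0.424 for S100a8 and -0.309 to 0.331 for S100a9. These fits are unbalanced and hold no term for the other factor. The CCR7L difference therefore enters the siRNA values, and the siRNA difference enters the CCR7L values. Such ranges do not measure the stability of either difference alone. For S100a4, with a CCR7L difference of 0.74, the single-library siRNA log2 ratios were -0.038 without CCR7L and -0.094 under CCR7L.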
